A study of Arabidopsis thaliana with 6 samples.

Results

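The IQD, TRM and SPIRAL1-like (SP1L) gene families, whose proteins are linked to microtubules, were followed in Arabidopsis thaliana seedlings. A gene was a member when a probe set assigned to 1 gene carried an IQD, TRM or SP1L symbol with a number in the array's annotation. This gave 34 genes, 15 IQD, 15 TRM and 4 SP1L, among the 13356 genes with such a probe set on the array, and each of the 34 had 1 probe set. RNA from whole light-grown seedlings was hybridised to 6 Affymetrix ATH1 arrays, 3 from wild type of accession Col-0 and 3 from a VFB triple mutant. VFB genes encode F-box proteins, the subunits that pick targets for ubiquitin ligases, and the labels do not say which VFB alleles the mutant carries. Wild type seedlings were 10 days old by every label. For the mutant the sample descriptions and the design text also say 10 days, but other labels, the source name and the extraction text, say 5. If the mutant seedlings were 5 days old, age and genotype cannot be told apart in any result below.

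Cortical microtubules lie under the plasma membrane of plant cells and guide the deposition of cellulose, so their arrangement sets the direction in which a cell expands. SPIRAL1 and its SP1L relatives are small plant proteins that bind microtubules, and loss of SPIRAL1 makes Arabidopsis organs twist. IQD proteins bind calmodulin, a calcium sensor, through their IQ67 domain, and many of them sit on microtubules as scaffolds. TRM stands for TON1 recruiting motif. TRM proteins bring TON1 and a protein phosphatase to microtubules, in a complex needed for the preprophase band that marks the plane of cell division.

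One gene that the symbol pattern caught is of another kind. TRM82 carries the synonym "tRNA modification 82" in RefSeq and no TON1 synonym, and the names TRM9, TRM10 and TRM11 each stand for 2 unrelated loci there. TRM82 is therefore counted as a member and described apart. RefSeq lists 33 IQD, 34 TON1 recruiting motif and 5 SP1L genes, of which 15, 14 and 4 were measured here. The rest were not analysed here, among them SP1L1, IQD1, IQD5 and the LONGIFOLIA genes TRM1 and TRM2.

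Values are MAS5 signals, a linear intensity per probe set, with 3 replicates per group throughout. Array medians ran from 184.6 to 204.2. The extraction text of mutant replicate 3 speaks of No-0 wild type plants, against its title and description. Over the tested probe sets, pairs of arrays correlated at 0.978 to 0.980 on the log2 scale among the mutant arrays, replicate 3 included, and 0.940 to 0.956 between the groups. Those points are probe sets of the same 6 arrays and not independent replicates. Nothing in the labels says that replicates were grown separately, so the p-values below cover only the scatter among these arrays, which may be technical.

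Of the 34 members, 20 were bright enough to test: 10 IQD, 6 TRM, TRM82 and 3 SP1L genes. In the mutant SP1L2, IQD22, IQD24, TRM15 and TRM26 fell, and 0 members rose (limma, adjusted p under 0.05 over 13647 probe sets). Thus 25% of the tested members were called lower, while 10.4% of all tested probe sets were called lower and 8.17% higher. At an unadjusted p under 0.05, 7 members were lower and 0 higher. The share of all tested probe sets past that threshold was not counted. It cannot be below the adjusted shares, but without it the counts of 7 and 0 cannot be read as more or fewer than usual. The median log2 change, mutant minus wild type, was -0.23 over the tested members and -0.05 over all tested probe sets. As deposited, changes were below 0 in 17 of the 20 members and in 56.1% of all tested probe sets. They were below 0 in 14 members against 51.6% of probe sets after quantile normalization, and in 13 against 43.7% after median centring. Groups did not overlap in 8 of the 20 members, all lower in the mutant, and 21.2% of all tested probe sets were of that kind. These counts describe the list, and no test over the list was made. Both shares fell when 1 array was left out. Without mutant replicate 1, 2 or 3 the count of lower members was 4, 2 and 3 of 20, and 8.64%, 7.14% and 9.51% of all probe sets were called lower. Without wild type replicate 1, 2 or 3 it was 3, 1 and 1 of 20, beside 8.06%, 6.38% and 7.28%.

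**Figure D1:**
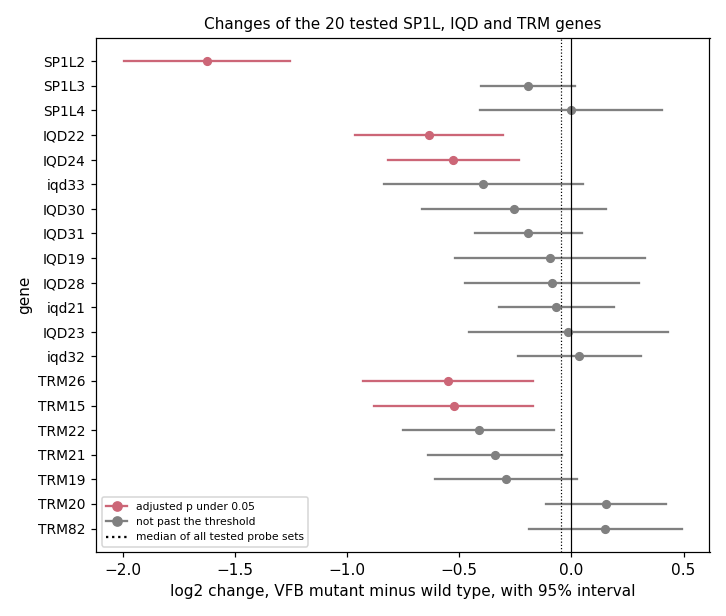
Log2 change (mutant minus wild type, on the log2(signal + 16) scale) of the 20 tested members, grouped by family, with 95% intervals from the limma fit. SP1L2 at -1.62 lies apart from the others, which run from -0.64 to 0.15.

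Of the 3 tested SP1L genes SP1L2 fell and the other 2 did not pass. SP1L2 (AT1G69230) gave signals of 339.5, 425.1 and 338.7 in wild type and 128.5, 96.7 and 100.4 in the mutant. Every mutant array lay below every wild type array, and the lowest wild type signal was 2.64 times the highest mutant signal. The group means were 367.8 ± 49.7 and 108.5 ± 17.4 (SD, n = 3 each), so the mutant held 29.5% of the wild type signal. The log2 change was -1.62 ± 0.170 (SE, 95% interval -1.99 to -1.26, limma adjusted p = 6.33e-05), and 25 of the 13647 tested probe sets changed further down. The brightness filter, taken on the mean over all 6 arrays, lay near a signal of 109, so SP1L2 stood at the filter level in the mutant.

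SP1L3 (AT3G02180) had the highest signal of the members, although signals of different probe sets do not rank transcript amounts. Its signals were 2601.1, 2595.7 and 2449.3 in wild type and 2197.8, 2129.2 and 2352.1 in the mutant. The groups did not overlap, but the gap was narrow, with 2449.3 as the lowest wild type and 2352.1 as the highest mutant signal. The log2 change was -0.19 ± 0.0969, which did not pass (limma adjusted p = 0.192), and its 95% interval ran from -0.40 to 0.02. A fall as large as that of SP1L2 lies outside this interval.

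SP1L4 (AT5G15600) gave 126.3, 115.1 and 102.8 in wild type and 106.5, 110.9 and 125.8 in the mutant. The groups covered the same range, and the log2 change was 0.00 ± 0.186 with a 95% interval of -0.41 to 0.40 (limma adjusted p = 0.995). SP1L5 (AT4G23496) was too dim to test, at 85.1, 139.9 and 111.2 against 50.4, 95.8 and 74.4, and its groups overlapped.

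**Figure D2:**
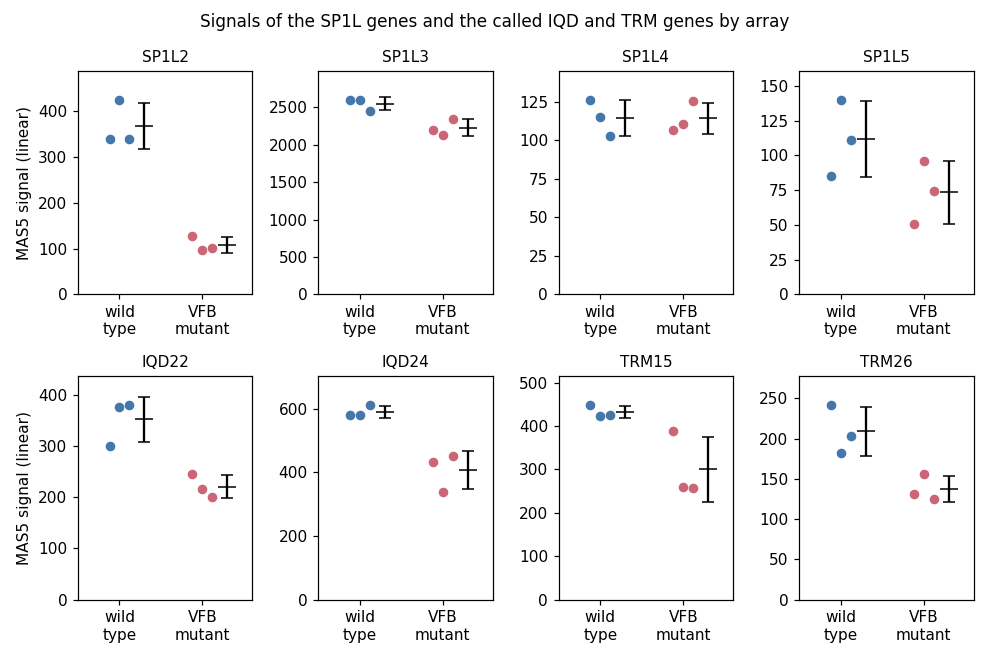
MAS5 signals (linear axes from 0) of the 4 SP1L genes and the called IQD and TRM genes. Points are arrays and the bars beside them mean ± SD (n = 3); SP1L2 falls from 338.7 or more to 128.5 or less, whereas SP1L4 covers the same range in both groups.

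Of the 10 tested IQD genes, IQD22 and IQD24 fell and 8 did not pass. IQD22 (AT4G23060) was at 301.0, 375.7 and 379.8 in wild type and at 244.9, 215.6 and 200.9 in the mutant. All mutant arrays were below all wild type arrays, with means of 352.2 ± 44.4 and 220.5 ± 22.4 (SD, n = 3 each). The log2 change was -0.64 ± 0.151 (95% interval -0.96 to -0.31, limma adjusted p = 0.0117). IQD24 (AT5G07240) was at 581.0, 579.7 and 611.5 in wild type and at 431.9, 339.5 and 452.3 in the mutant. Again the groups did not overlap, and the mutant mean was 69% of the wild type mean. The log2 change was -0.53 ± 0.135 (95% interval -0.82 to -0.23, limma adjusted p = 0.0167).

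The 2 IQD genes of highest signal did not pass. IQD31 (AT1G74690) gave 1153.4, 1066.2 and 1246.4 in wild type against 948.4, 1066.3 and 1007.8, where 1 mutant array just topped the lowest wild type array. Its log2 change was -0.19 ± 0.110 (limma adjusted p = 0.256, 95% interval -0.43 to 0.05). For iqd21 (AT3G49260) the signals were 790.8, 796.1 and 848.8 against 758.2, 699.5 and 873.7, with overlap and a log2 change of -0.07 ± 0.118.

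Among the IQD genes that did not pass, iqd33 (AT5G35670) and IQD30 (AT1G18840) had the largest changes. In iqd33 the signals were 144.2, 118.5 and 147.5 in wild type and 128.0, 89.1 and 86.9 in the mutant. The log2 change was -0.39 ± 0.204 (limma adjusted p = 0.211). IQD30 went from 347.7, 519.4 and 408.2 to 394.9, 410.0 and 260.5, a log2 change of -0.26 ± 0.189 (limma adjusted p = 0.388). Mutant replicate 1 of iqd33, and mutant replicates 1 and 2 of IQD30, lay within the wild type range.

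The other 4 IQD genes lay near 0. Their log2 changes were -0.10 ± 0.195 in IQD19 (AT4G14750), -0.09 ± 0.179 in IQD28 (AT1G14380), -0.01 ± 0.205 in IQD23 (AT5G62070) and 0.04 ± 0.126 in iqd32 (AT1G19870). IQD23 was even in wild type, at 222.0 to 241.3, and spread from 163.3 to 320.1 in the mutant. The narrowest of these 4 intervals, that of iqd32, was -0.24 to 0.31. Changes this close to 0 take their sign from the scaling: under quantile normalization IQD19, IQD23 and SP1L4 turned above 0, and under median centring iqd21, IQD23, IQD28 and SP1L4 did.

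Of the 6 tested TRM genes, TRM15 and TRM26 fell and 4 did not pass. TRM15 (AT4G00440) was at 448.0, 423.7 and 425.1 in wild type and at 387.4, 258.3 and 256.9 in the mutant. The mutant arrays were split, with replicate 1 close to wild type and replicates 2 and 3 well below it. The log2 change was -0.53 ± 0.163 (limma adjusted p = 0.041, 95% interval -0.88 to -0.17), and it was -0.71 without mutant replicate 1 (adjusted p = 0.00642). TRM26 (AT2G17550) was at 241.4, 181.7 and 203.4 in wild type and at 130.5, 155.9 and 125.0 in the mutant, with no overlap. Its log2 change was -0.55 ± 0.175 (limma adjusted p = 0.0447, 95% interval -0.93 to -0.17).

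TRM22 (AT1G67040) and TRM21 (AT5G43880) separated the groups without passing. TRM22 gave 223.1, 208.4 and 218.0 in wild type and 170.1, 147.1 and 158.9 in the mutant, so the spread within each group was small beside the gap. Its log2 change was -0.41 ± 0.155 (limma adjusted p = 0.0846, 95% interval -0.75 to -0.08), and it passed only when the variance was modelled without a trend (adjusted p = 0.0352). TRM21 gave 363.3, 364.1 and 343.9 against 246.3, 293.5 and 298.4, a log2 change of -0.34 ± 0.137 (limma adjusted p = 0.106). Both unadjusted 95% intervals lay below 0, that of TRM21 at -0.64 to -0.04.

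TRM20 (AT4G28760) and TRM19 (AT3G53540) had the highest signals among the TRM genes that did not pass. TRM20 was the only tested TON1-type TRM gene above 0 as deposited, at 539.1, 579.2 and 660.7 in wild type and 648.3, 624.3 and 708.2 in the mutant. The groups overlapped, and the log2 change of 0.15 ± 0.123 did not pass (limma adjusted p = 0.43). TRM19 was at 360.8, 384.3 and 441.5 against 304.6, 285.0 and 373.8, also with overlap, a log2 difference of -0.29 ± 0.147 (limma adjusted p = 0.197). The tRNA modification gene TRM82 (AT1G03110) was at 253.6, 262.3 and 223.8 against 268.9, 237.5 and 325.2, which overlapped, with a log2 change of 0.15 ± 0.157 (limma adjusted p = 0.556). Without TRM82, a choice made after seeing the data, 5 of 19 members were called lower.

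The other 14 members were below the brightness filter. They were 5 IQD genes (iqd15, IQD16, IQD18, IQD26 and IQD27), 8 TRM genes (TRM18, TRM23, TRM24, TRM25, TRM28, TRM31, TRM33 and TRM34) and SP1L5. Their mean signals ran from 13.3 to 92.8, and single arrays from 2.5 to 139.9. At the edge of the filter, SP1L4 (mean 114.6) and IQD19 (116.5) were tested, and SP1L5 (92.8) and IQD26 (74.4) were not.

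The groups did not overlap in 2 of the 14 dim genes, 1 lower and 1 higher in the mutant. Of all probe sets below the filter, 8.53% were lower and 7.13% higher without overlap, so both counts were near that background. IQD18 was at 74.9, 92.2 and 78.2 in wild type and 43.5, 63.0 and 55.0 in the mutant. TRM24 was at 51.1, 48.2 and 65.5 in wild type and 94.4, 67.6 and 76.0 in the mutant, so it was the higher one there. When every probe set was tested, adjusted p was 0.268 for IQD18 and 0.355 for TRM24 in limma, and none of the 14 passed at values of 0.268 to 0.998. In that fit 3 of 34 members fell and 0 rose, while 5.06% of all probe sets were called lower.

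**Figure D3:**
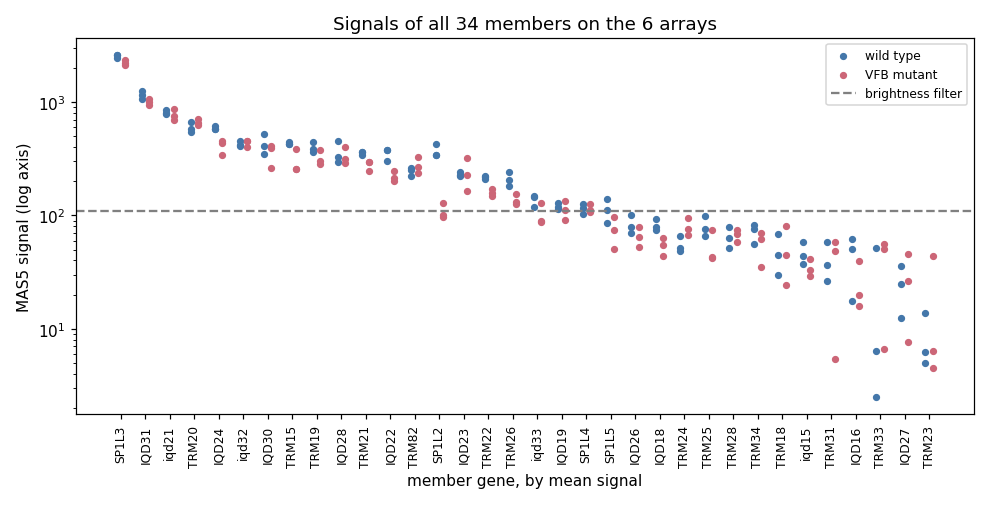
MAS5 signals (log axis) of all 34 members on the 6 arrays, ordered by mean signal, with the brightness filter at 109 as a dashed line. SP1L3 has the highest signal, at 2129.2 to 2601.1, and the 14 genes right of SP1L4 were not tested.

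The 5 calls did not rest on the same evidence. All 5 were lost in the unequal-variance test (adjusted p = 0.0993 to 0.313). Over all tested probe sets that test called only 4 lower and 2 higher, so a call lost there says little about a single gene. TRM15 and TRM26 were also lost under quantile normalization (0.0592 and 0.105), median centring (0.0783 and 0.0954), no filter (0.0794 and 0.0975) and the replicate block (0.0517 and 0.0869), and TRM15 without the variance trend (0.0525). SP1L2 passed in every fit with 1 array left out, at log2 changes of -1.74 to -1.52. IQD22 lost its call without wild type replicate 2 (adjusted p = 0.0577) or 3 (0.0508). IQD24 lost it without wild type replicate 2 (0.0522), wild type replicate 3 (0.0568) or mutant replicate 2 (0.0722). TRM15 passed only without mutant replicate 1, and TRM26 in none of the 6 fits (adjusted p = 0.0508 to 0.146). Without mutant replicate 3, whose extraction text speaks of wild type plants, SP1L2 (-1.58, adjusted p = 0.000348), IQD24 (-0.60, 0.0159) and IQD22 (-0.58, 0.0357) passed. TRM15 (-0.43, 0.123) and TRM26 (-0.49, 0.109) did not pass in that fit. The conflict over age covers every mutant array, so it remains there.

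**Figure D4:**
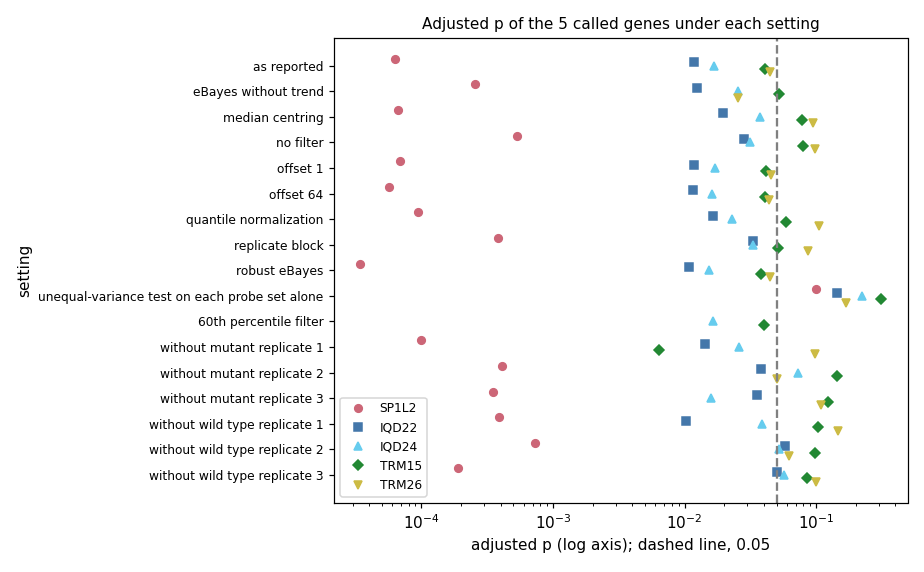
Adjusted p (log axis) of the 5 called genes as reported and under each alternative, with the 0.05 threshold as a dashed line. SP1L2 stays left of the line except in the unequal-variance test, where it was 0.0993; TRM26 lies right of it in every fit that leaves out an array. No point is drawn where a gene fell below the stricter filter.

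Other microtubule genes were read from a list of 55 loci that encode tubulins, nucleation factors, microtubule-associated proteins and calmodulins. Only 11 of the 55 had a probe set named here, and all 11 were tested. Of these 6 fell and 0 rose, against 10.4% of all tested probe sets called lower and 8.17% higher. Their median log2 change was -0.35, beside -0.05 over all tested probe sets. The list was chosen with earlier results of these data known, so its counts are a description and not a test. At an unadjusted p under 0.05 TUA1 was the 1 gene on the higher side. On the lower side TUB7 joined the 6 called genes. The share of all tested probe sets past that threshold was not counted. Without that share these unadjusted counts cannot be read as more or fewer than usual. Calmodulins, katanin, TON1A, TON2 and the kinesin light chain-related partners of IQD proteins were not analysed here.

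Beta-tubulin, which pairs with alpha-tubulin to build the microtubule, made up most of the falls. TUB1 was at 672.6, 600.4 and 616.6 in wild type and at 297.3, 270.6 and 336.7 in the mutant, 47.9% of the wild type mean. Its groups were far apart, and the log2 change was -1.03 ± 0.130 (limma adjusted p = 0.000195). TUB6 (-0.59 ± 0.105), TUB5 (-0.53 ± 0.0994) and TUB9 (-0.35 ± 0.101) also fell, while TUB7 (-0.27 ± 0.112) did not pass (limma adjusted p = 0.115). Tubulin genes are close copies of one another, so their probe sets may share signal.

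The 2 alpha-tubulin genes measured did not pass. TUA6 had a log2 change of -0.23 ± 0.118 (limma adjusted p = 0.206). TUA1 was at 382.1, 484.2 and 337.0 in wild type and 516.3, 499.7 and 514.9 in the mutant, higher without overlap, and its log2 change was 0.35 ± 0.144 (limma adjusted p = 0.114).

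SPR1, the founder of the SP1L family, gave 3052.7, 3128.4 and 2905.1 in wild type and 2289.2, 2323.4 and 2510.7 in the mutant. The groups did not overlap, and the log2 change was -0.35 ± 0.0963 (limma adjusted p = 0.0239). ATMAP65-6, of a family that cross-links microtubules, fell, with a log2 change of -0.67 ± 0.151 (limma adjusted p = 0.00829). TON1B, a partner of TRM proteins, was at 390.0, 348.7 and 402.7 against 409.9, 419.0 and 345.7, which overlapped (0.04 ± 0.135, limma adjusted p = 0.886), and it has a close copy, TON1A. AT5G17410, which the reference table does not name, had a log2 change of -0.42 ± 0.196 and did not pass (limma adjusted p = 0.168). SPR1 and TUB9 did not pass without the variance trend (adjusted p = 0.0611 and 0.0659) or after median centring (0.102 and 0.1). With the replicate block they did not pass either (0.0699 and 0.0814). In the unequal-variance test, which called very few probe sets of any kind, none of the called genes on this list passed (adjusted p = 0.106 to 0.188). Leaving out single arrays took SPR1 to between 0.0249 and 0.0943 and TUB9 to between 0.0385 and 0.118. SPR1 was lost without replicate 1 or 2 of either group, and TUB9 without replicate 2 or 3 of either group.

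**Figure D5:**
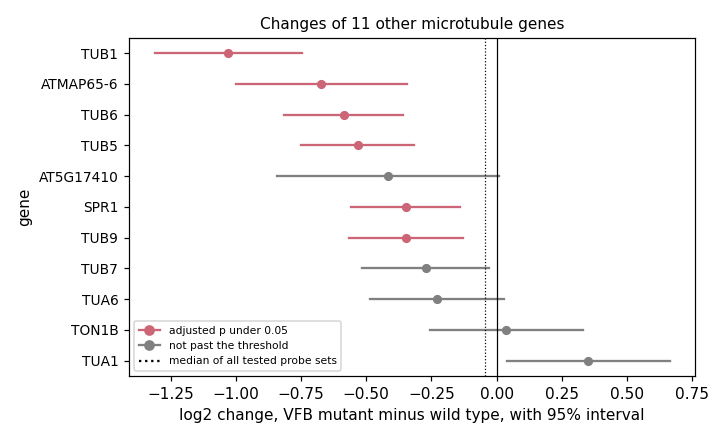
Log2 change (mutant minus wild type) of 11 other microtubule genes with 95% intervals from the limma fit. The 6 called genes run from TUB1 at -1.03 to TUB9 at -0.35, and TUA1 at 0.35 is on the other side.

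Whole seedlings mix many cell types, so fewer cells of a type and less RNA per cell cannot be told apart. Green tissue markers were present, and 3 of 6 (RCA, LHCB4.1 and PRK) had a named probe set. Their summed signal was 49974 to 54654 in wild type and 59810 to 65996 in the mutant. PRK was called higher (limma adjusted p = 0.0166), while RCA (0.0802) and LHCB4.1 (0.251) did not pass. Of 6 root markers 3 were measured (PYK10, AT4G26010 and EXPA7), summing to 12841 to 13692 in wild type and 12493 to 17166 in the mutant. That sum was nearly all PYK10, at 12618.1 to 13438.8 and 12387.1 to 17028.0. The other 2 had lower means in the mutant. AT4G26010 was at 191.0, 184.9 and 177.8 in wild type and 56.8, 133.2 and 64.2 in the mutant, 45.9% of the wild type mean, and fell (log2 change -1.07 ± 0.253, limma adjusted p = 0.0112). Its mutant mean of 84.7 lay below the level of the brightness filter, which it passed through its wild type signal. EXPA7, below the filter, was at 62.5, 37.7 and 75.0 against 49.5, 4.9 and 35.0, with overlap, and its mutant mean was 51% of wild type. None of the 6 markers of dividing cells or the 6 seed reserve genes listed was analysed here. The 3′ to 5′ ratio of the actin control was 2.55 to 3.00 in wild type and 3.19 to 3.56 in the mutant (exact two-sided permutation p = 0.1, the smallest possible with 3 against 3). Ratios of GAPDH (exact permutation p = 1) and ubiquitin (exact permutation p = 0.3) overlapped between the groups. The part of these markers and ratios in the changes of the IQD, TRM, SP1L and tubulin genes was not tested.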

How the data were processed

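Biotin-labelled cRNA was hybridised to ATH1 arrays. The deposited values are linear probe set intensities. MAS5 was used by the authors to make them, according to the submitters' processing notes, which give no version or setting. Each array had a mean of 500 after 2% of values were trimmed at each end. Samples were grouped by title. The annotation paired 13513 of 22746 gene probe sets with 1 gene, and 13436 of these matched RefSeq (assembly TAIR10.1). No reference sequences were used.

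Signals were analysed as log2(value + 16), a scale that understates changes of dim genes, with 64 control probe sets left out and only probe sets above the 40th percentile of mean log2 value kept. The mutant and wild type groups were compared by lmFit and eBayes with a trend (limma 3.58.1, R 4.3.3), and Benjamini-Hochberg adjustment ran over all 13647 tested probe sets with a threshold of 0.05. The fit was run on simulated arrays with known changes and independent noise, a check of the code and not of the results. Precision is limited by having 3 arrays a group.

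Genes described in full are the called members, all SP1L genes, for IQD and TRM each, among members that did not pass, the 2 of highest signal and the 2 of largest change, and of the other microtubule genes the called ones, SPR1 and TON1B. TRM82, the near-0 IQD genes and the other uncalled genes were added after their values were seen. Members and lists were chosen with earlier results of these data known. Alternatives were offsets of 1 and 64, quantile normalization, median centring, no filter, a 60th percentile filter, other variance models, an unequal-variance test, a replicate block and leaving out each array.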

Additional observations from a re-analysis of the deposited data

How the results depend on the processing

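As deposited, 5 of 20 members were called lower, beside 10.4% of all tested probe sets. The count was 3 of 20 under quantile normalization (beside 8.90%), median centring (7.03%) and the replicate block (8.10%), and 3 of 34 with no filter (5.06%). It was 2 of 11 with the 60th percentile filter (11.1%), where SP1L2, IQD22 and TRM26 were not tested, and 0 with the unequal-variance test (0.0293%). In each setting with 3 these were SP1L2, IQD22 and IQD24. Without the variance trend 5 were called (9.86%), with TRM22 (adjusted p = 0.0352) in place of TRM15 (0.0525). Leaving out 1 array gave 1 to 4. No member was called higher under any alternative run, and the median change of the tested members stayed between -0.27 and -0.14. Of the other microtubule genes 0 were called lower with the unequal-variance test and 4 to 6 elsewhere. Over all probe sets that test called 4 lower and 2 higher, in place of 1426 and 1115. Leaving out 1 array gave 871 to 1298 lower and 775 to 968 higher. Testing every probe set of each member, or taking members by current RefSeq symbol, left the same 34 genes. Nothing in the labels says that replicate numbers pair samples, so they were not taken as pairs. Correlations of deviations were -0.20, 0.02 and -0.17 for same-numbered arrays of the 2 groups. They were -0.04 to 0.19 for arrays of unlike number. With the replicate block 1106 probe sets were called lower and 882 higher. The cause of these differences was not tested. Some settings also held fewer arrays or fewer genes than the main fit. Dim members are the least precise: standard errors of the 10 dimmer tested members had a median of 0.173, and those of the 10 brighter ones 0.130.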

Other observations

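The chromosomal neighbours of the called genes were read as a description, chosen after the calls were known. Among the 3 protein-coding genes on each side of the 5 called members, 12 had a named probe set. Of these, 7 were bright enough to test, around 4 of the members. None of the 7 passed (limma, lowest adjusted p = 0.24), with log2 changes of -0.28 to 0.04. Of all tested probe sets, 10.4% were called lower and 8.17% higher. For only 7 genes, a count of 0 is not far from those shares. Around SP1L2 the tested genes were both the gene 2 places away. The log2 change was -0.28 ± 0.154 for AT1G69210 and -0.09 ± 0.120 for AT1G69250. The genes adjoining SP1L2 were not measured here. For IQD22, the log2 change was -0.02 ± 0.146 in the adjoining AT4G23050 and 0.04 ± 0.168 in AT4G23040, 2 places away. TRM26 had the adjoining AT2G17540 (-0.10 ± 0.167) and, 2 places away, AT2G17530 (-0.23 ± 0.140). The tested gene near TRM15 was AT4G00420 (-0.02 ± 0.169), also 2 places away. The gene order is that of RefSeq assembly TAIR10.1.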
